A study of Mus musculus with 24 samples.

Results

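Genes of hepatic drug sensing and drug oxidation were followed through mouse liver with and without Smyd3 and with and without a chemical carcinogen. They were chosen by name: Nr1i3, Nr1i2, Ahr, Arnt, Rxra and Por, which are 6 of the 37583 genes in the deposited expression table. All 6 passed the filter on low values, which left 16471 genes to test. The values are normalized read counts, scaled by the authors for library size and not for transcript length, so a level is compared between libraries for 1 gene and never between genes.

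The 12 RNA libraries formed 4 groups of 3, each library labelled as a separate mouse. DEN_KO livers came from Smyd3 knockout mice given diethylnitrosamine (DEN), DEN_WT livers from wild-type mice given DEN, KO livers from untreated knockouts, and WT livers from untreated wild types. DEN is a liver carcinogen that is activated by cytochrome P450 enzymes, and was injected once into the peritoneum at 25 mg/kg. All mice were killed at 8.5 months of age. The strain label was C57BL6/CBA, while the husbandry notes name C57Bl6. The knockout came from gene-trap embryonic stem cells and affects every tissue, with the trap inside an intron, so upstream exons can still be transcribed. The age at injection, the time of day and whether tumour or surrounding tissue was taken could not be read from the labels. Chromatin lists came from DEN-treated livers only, with 2 precipitations behind each list: Smyd3 in WT, and H3K4me3, a histone mark found at active start sites, in KO and in WT.

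The constitutive androstane receptor (CAR, Nr1i3) and the pregnane X receptor (PXR, Nr1i2) are nuclear receptors that bind DNA together with retinoid X receptor alpha (Rxra) and switch on genes for oxidation, conjugation and export of foreign compounds. The aryl hydrocarbon receptor (Ahr) pairs with Arnt for the same purpose and drives Cyp1a genes. Cytochrome P450 reductase (Por) hands electrons from NADPH to the microsomal P450 enzymes that these receptors control. In the liver CAR, PXR and Por act mainly in hepatocytes, and CAR is known for both drug clearance and liver tumour promotion in mice.

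Summed values ran from 22320634 to 28973396 per library. Smyd3 read 3 to 12 in DEN_KO and 57 to 74 in DEN_WT, and 17 to 29 in KO and 59 to 89 in WT, so every library went with its label. In limma its fall in KO against WT was not called (log2 -1.71, Benjamini-Hochberg adjusted p = 0.065). Smyd3 was called lower in DEN_KO against DEN_WT (-3.13, adjusted p = 0.00018) and in DEN_KO against KO (-1.58, adjusted p = 0.022). The 10 highest genes held 21.4% to 31.8% of all values in DEN_WT, against 14.4% to 19.8% across the other groups. All 8 hepatocyte markers were tested, and 1 was called higher and 0 lower in DEN_WT against WT, and 2 higher and 0 lower in DEN_KO against DEN_WT. Their sums were 1.91e+06 to 2.77e+06 in DEN_KO, 3.28e+06 to 4.92e+06 in DEN_WT and 2.23e+06 to 2.49e+06 in WT. The largest of them, Alb, averaged 1.25e+06 in DEN_KO, 2.67e+06 in DEN_WT and 1.40e+06 in WT. Summed cholangiocyte markers were 1536 to 2328 in DEN_KO, 10397 to 17403 in DEN_WT and 1271 to 1539 in WT, with 2 of 6 tested ones called higher in DEN_WT against WT and 2 lower in DEN_KO against DEN_WT. In DEN_WT most of that sum was Spp1, which other cells also express, with means of 1164 in DEN_KO, 13062 in DEN_WT and 731 in WT. Krt19, a keratin that defines these cells, averaged 35.7 in DEN_KO, 40 in DEN_WT and 41.3 in WT, and Epcam 26 in DEN_KO, 30.3 in DEN_WT and 16.7 in WT. Stellate cell markers summed to 3718 to 4571 in DEN_KO, 5187 to 8515 in DEN_WT and 4387 to 4689 in WT. Of these 8, 4 were called higher and 1 lower in DEN_WT against WT, and 5 lower in DEN_KO against DEN_WT. Endothelial markers summed to 6290 to 6920 in DEN_KO, 6433 to 6583 in DEN_WT and 4856 to 5532 in WT, and of 8 tested 4 were called higher in DEN_WT against WT and 2 lower in DEN_KO against DEN_WT. For macrophage markers the sums were 8372 to 11445 in DEN_KO, 2746 to 9115 in DEN_WT and 4856 to 5347 in WT, with 0 of 9 called in DEN_WT against WT and 2 higher in DEN_KO against DEN_WT. The part of cell makeup in the results was not tested. In these bulk samples, fewer cells of a type and less RNA per cell cannot be told apart. Ddx3y, a Y-linked gene, read 697 to 1575 and Xist, the X-inactivation RNA, 4 to 29 over the 12 libraries. Both were chosen after their values were seen.

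CAR was the member with the widest range. Nr1i3 (ENSMUSG00000005677, mm9 chr1:173144101-173150832, plus strand) read 11516, 11454 and 13284 in DEN_KO, 1374, 1008 and 1995 in DEN_WT, 12350, 11539 and 10559 in KO, and 2285, 7578 and 7958 in WT. All 3 DEN_WT livers lay below every other library, and all 6 Smyd3-deficient livers lay above every WT liver. The first WT library, at 2285, sat close to the highest DEN_WT value. Group means were 12085 ± 1039 in DEN_KO, 1459 ± 499 in DEN_WT, 11483 ± 897 in KO and 5940 ± 3171 in WT (SD, n = 3 each).

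Nr1i3 was lower in DEN_WT than in WT by limma on log2(value + 1), with a log2 fold change of -1.88 ± 0.38 (SE; 95% interval -2.70 to -1.06; Benjamini-Hochberg adjusted p = 0.0025). It was 8.59-fold higher in DEN_KO than in DEN_WT (log2 3.10 ± 0.38, 95% interval 2.28 to 3.93, adjusted p = 0.00013). Both comparisons share the DEN_WT libraries, so their opposite signs are not independent. Both calls held under each of the 22 other settings and left-out libraries. Without WT replicate 1 the change in DEN_WT against WT was -2.47.

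Without DEN the knockout difference in Nr1i3 did not pass the test. The log2 fold change was 1.15 ± 0.38 for KO against WT (95% interval 0.33 to 1.97, adjusted p = 0.18 in limma), with no overlap between the groups. Groups separated in this direction for 8.40% of all tested genes. The value rested in part on WT replicate 1, since without it the log2 fold change was 0.56 (adjusted p = 0.28). In DEN_KO against KO the log2 fold change was 0.07 (95% interval -0.75 to 0.90, adjusted p = 0.92). The DEN effect in KO minus that in WT was 1.95 ± 0.54 (95% interval 0.79 to 3.12, adjusted p = 0.027). That difference of effects missed the threshold without DEN_KO replicate 3, DEN_WT replicate 2, WT replicate 2 or WT replicate 3 (adjusted p = 0.059 to 0.067), and with no trend in the variance model (0.053).

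**Figure D1:**
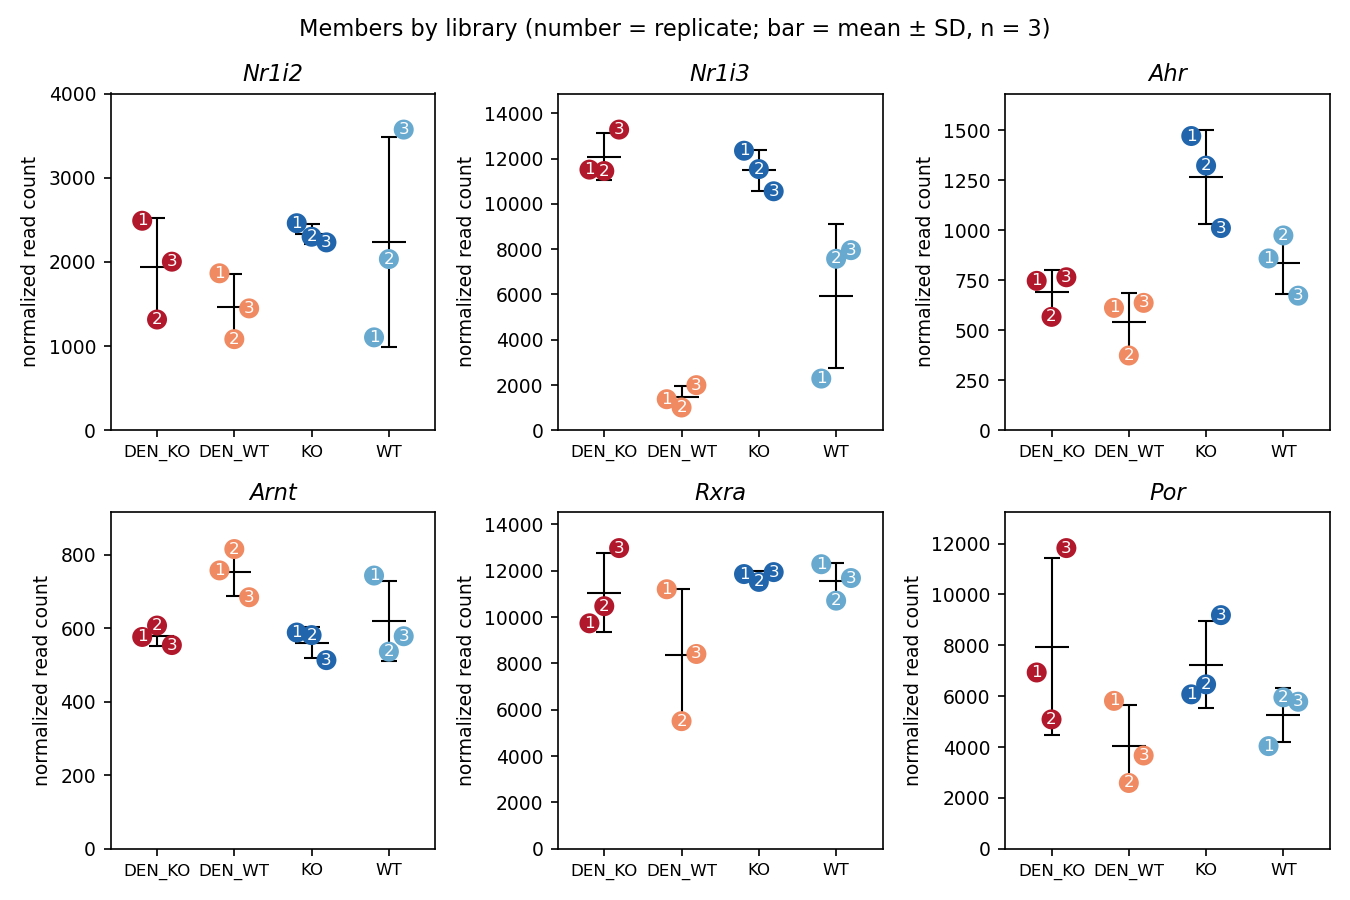
Normalized read counts of the 6 genes in each of the 12 libraries (points, vertical axis from 0), by group along the horizontal axis, with horizontal lines for the group means. Nr1i3 lies between 1008 and 1995 in DEN_WT and between 10559 and 13284 in the 6 Smyd3-deficient livers.

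To show what lies before the start sites of CAR and PXR, the 250 bases upstream are given from RefSeq (GRCm38.p6, a later build than the mm9 of the region lists, so the positions cannot be laid over each other). The Nr1i3 stretch is chr1:171213720-171213969 on the plus strand and the Nr1i2 stretch chr16:38294825-38295074 on the minus strand. Entries for 5 of the 6 genes were used here. Capitals mark CACGTG, the E-box core, and CCCTCC, a sequence reported for SMYD3 binding. Both strands were searched.
Nr1i3: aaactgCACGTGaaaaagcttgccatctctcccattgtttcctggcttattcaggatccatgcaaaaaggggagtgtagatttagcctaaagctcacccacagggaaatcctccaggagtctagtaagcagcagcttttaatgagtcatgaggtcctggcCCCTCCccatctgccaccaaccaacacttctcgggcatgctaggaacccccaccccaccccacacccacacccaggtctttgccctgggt
Nr1i2: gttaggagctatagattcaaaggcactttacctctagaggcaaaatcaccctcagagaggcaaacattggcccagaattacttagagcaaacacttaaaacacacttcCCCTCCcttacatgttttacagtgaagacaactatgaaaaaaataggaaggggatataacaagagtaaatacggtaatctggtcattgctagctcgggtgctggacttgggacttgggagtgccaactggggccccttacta

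The E-box of Nr1i3 lay at -244 to -239 from the start and occurs in 6.02% of 32851 such promoters. CCCTCC, found in 35.2% of them, lay at -90 to -85 from the Nr1i3 start and at -142 to -137 from that of Nr1i2. The receptor element AGGTCA (14% of promoters) and GCGTG, the AHR-ARNT core (28.2%), had no match in either window. The repeats of AGGTCA, searched as exact letters, had none either. Each occurs in 0.0335% of promoters or fewer, so their absence says little. These are matches of letters, and none is a measured binding site.

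With all 12 libraries PXR passed the test in no comparison, and its spread among WT mice was wide. Nr1i2 (ENSMUSG00000022809, mm9 chr16:38248409-38294910, minus strand) read 2489, 1316 and 2003 in DEN_KO, 1865, 1083 and 1448 in DEN_WT, 2460, 2299 and 2232 in KO, and 1104, 2034 and 3572 in WT. The WT mice alone spanned nearly the whole range of the gene, and all 4 groups overlapped except that every KO value exceeded every DEN_WT value. Its log2 fold change was -0.48 ± 0.35 in DEN_WT against WT (95% interval -1.24 to 0.27, limma adjusted p = 0.32). Without WT replicate 1 this change was called, at -0.91 (adjusted p = 0.040), and with any other library left out it was not. DEN_KO against DEN_WT gave 0.39 ± 0.35 (95% interval -0.36 to 1.14, adjusted p = 0.42). The sign of the log2 fold change in KO against WT turned with the library left out, with values of -0.21 to 0.64. Tests of a difference between the changes of Nr1i3 and Nr1i2 were not made.

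Rxra, the shared partner of CAR and PXR, passed the test in no comparison with all libraries. Rxra (ENSMUSG00000015846, mm9 chr2:27531960-27618477, plus strand) read 9732, 10472 and 12979 in DEN_KO, 11202, 5510 and 8409 in DEN_WT, 11858, 11520 and 11942 in KO, and 12283, 10711 and 11686 in WT. DEN_WT held the 2 lowest values and 1 value within the range of the other groups. The log2 fold change was -0.52 ± 0.23 in DEN_WT against WT (limma adjusted p = 0.10) and 0.45 ± 0.23 in DEN_KO against DEN_WT (adjusted p = 0.14). Without DEN_WT replicate 1 both were called, at -0.76 (adjusted p = 0.021) and 0.69 (adjusted p = 0.029). Other alternatives shrank both changes. In DEN_WT against WT the weakest value was -0.25 with a library left out and -0.013 among the other settings. In DEN_KO against DEN_WT these values were 0.18 and 0.038.

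Ahr, the receptor for dioxins and related ligands, was lower after DEN in both genotypes. Ahr (ENSMUSG00000019256, mm9 chr12:36182646-36219710, minus strand) read 747, 567 and 765 in DEN_KO, 612, 374 and 637 in DEN_WT, 1471, 1323 and 1011 in KO, and 859, 974 and 673 in WT. Every treated library lay below every untreated library of its genotype, and the 3 KO values were the highest of all. Groups separated in this direction for 16.5% of tested genes in DEN_KO against KO and 20.9% in DEN_WT against WT. The log2 fold change was -0.87 ± 0.23 in DEN_KO against KO (95% interval -1.36 to -0.37, limma adjusted p = 0.025). In DEN_WT against WT it was -0.65 ± 0.23 (95% interval -1.14 to -0.15, adjusted p = 0.048). The change in WT was near the threshold and was lost in 14 of 22 alternatives, among them quantile normalization (adjusted p = 0.055) and equal library totals (0.22). It was also lost without DEN_KO replicate 1 or 3, DEN_WT replicate 2, KO replicate 1 or 2, or WT replicate 1 or 2 (adjusted p = 0.055 to 0.20). The change in KO was lost in 4, which were equal totals and leaving out DEN_KO replicate 2, KO replicate 1 or KO replicate 2 (adjusted p = 0.051 to 0.10). The DEN effects in KO and WT differed by -0.22 ± 0.33 (95% interval -0.92 to 0.48, adjusted p = 0.69). In KO against WT the log2 fold change was 0.60 ± 0.23 without overlap and was not called (adjusted p = 0.24). Such a separation, KO above WT, was present in 8.40% of tested genes.

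Arnt, which pairs with Ahr and with hypoxia factors, had its 2 highest values in DEN_WT. Arnt (ENSMUSG00000015522, mm9 chr3:95238310-95301162, plus strand) read 576, 607 and 554 in DEN_KO, 757, 815 and 684 in DEN_WT, 588, 581 and 513 in KO, and 743, 536 and 578 in WT. All DEN_KO values lay below all DEN_WT values, a separation in this direction that 26.4% of tested genes had. The log2 fold change of -0.37 ± 0.16 in that comparison was not called (95% interval -0.71 to -0.04, limma adjusted p = 0.079). It passed the test when libraries were scaled to equal totals without the 10 highest genes (adjusted p = 0.029) and without WT replicate 1 (0.048). In DEN_WT against WT the log2 fold change of Arnt was 0.29 ± 0.16 and was not called (adjusted p = 0.18), while equal totals without the 10 highest genes gave 0.68, a call (adjusted p = 0.016).

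Por supplies the electrons for P450 catalysis, and its range within DEN_KO was wide. Por (ENSMUSG00000005514, mm9 chr5:136145903-136211196, plus strand) read 6932, 5088 and 11822 in DEN_KO, 5816, 2588 and 3669 in DEN_WT, 6072, 6464 and 9186 in KO, and 4037, 5955 and 5781 in WT. DEN_KO and DEN_WT overlapped through the values 5088 and 5816. Por was called higher in DEN_KO than in DEN_WT, 1.96-fold (log2 0.97 ± 0.33, 95% interval 0.27 to 1.68, limma adjusted p = 0.036). The call was lost in 9 of 22 alternatives, among them leaving out DEN_KO replicate 1 or DEN_WT replicate 2 or 3 (adjusted p = 0.062 to 0.15). Without DEN_KO replicate 3 the log2 fold change was 0.64 (adjusted p = 0.16). DEN_WT against WT gave -0.44 ± 0.33 (adjusted p = 0.33) and KO against WT 0.46 ± 0.33 (adjusted p = 0.53), with no overlap between KO and WT. KO stood above WT without overlap in 8.40% of tested genes.

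Across the 6 genes, the test called 2 lower and 0 higher in DEN_WT against WT, where 29.6% of all tested genes were called, 16.1% higher and 13.5% lower. In DEN_KO against DEN_WT it called 2 higher and 0 lower, against 33.9% of tested genes called, 16.4% higher and 17.4% lower. Groups stood apart with DEN_KO above DEN_WT, as for Nr1i3, in 23.6% of tested genes. In DEN_KO against KO it called 1 lower, with 14.9% of genes called, 8.91% higher and 6.02% lower, and in the difference of DEN effects 1 higher, with 16.6% called, 8.73% higher and 7.83% lower. In KO against WT limma called 0 members, beside 1.16% of tested genes called, 0.546% higher and 0.613% lower, while 2492 genes and 2 members, Nr1i3 and Ahr, had an unadjusted p under 0.05. The members' median log2 fold change was -0.50 in DEN_WT against WT, beside -0.02 over all tested genes, and 0.42 in DEN_KO against DEN_WT, beside -0.06. The members' share called in either direction was near that of all tested genes in both comparisons. By size, Nr1i3 stood higher in DEN_KO against DEN_WT than 99.5% of tested genes, and lower in DEN_WT against WT than all but 1.96% of them.

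**Figure D2:**
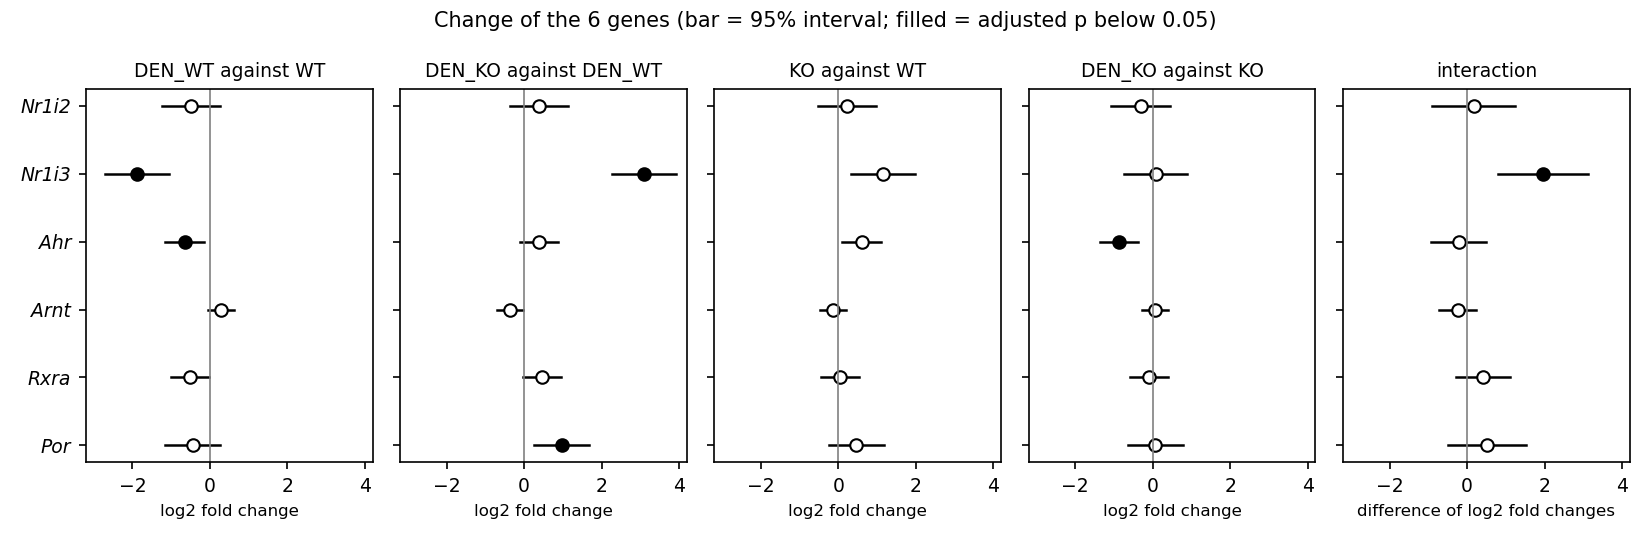
Log2 fold changes of the 6 genes (points, horizontal axis) with 95% intervals from limma (lines), for each comparison, with filled points for called genes. Nr1i3 stands at 3.10 in DEN_KO against DEN_WT and at -1.88 in DEN_WT against WT, while most other intervals include 0.

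The same DEN_WT liver was at the edge of its group for every member. In a group of 3 most libraries are at an edge for any gene. The share of all tested genes with this liver at an edge was not counted. DEN_WT replicate 2 had the lowest value of its group for Nr1i3, Nr1i2, Rxra, Ahr and Por and the highest for Arnt. This library also had the largest share in its 10 highest genes, 31.8%. Dbp, a clock-driven activator of drug metabolism genes, was chosen after its values were seen and was called in no comparison. It read 2579, 2154 and 5118 in DEN_KO and 3045, 594 and 1291 in DEN_WT. Its values were 1260, 1810 and 2843 in KO and 3031, 3761 and 3245 in WT. Thus DEN_KO replicate 3, highest for Por, was also highest for Dbp, and DEN_WT replicate 2, lowest for Por, was lowest for Dbp. The related factors Tef and Hlf, also chosen after their values were seen, were lower in DEN_WT against WT (log2 -1.12 and -0.98, limma adjusted p = 0.046 and 0.0060) and were called in no other comparison. The part of time of day in these results was not tested.

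Genes that shared their pattern were ranked by the root mean square difference of centred log2 values over the 12 libraries, among 10696 genes. Nearest to Nr1i3 were Acaa1b, a peroxisomal thiolase, at 0.54, then Srgap3 at 0.56 and Slc39a2, a zinc transporter, at 0.56. These are wide gaps beside those of Arnt, whose nearest gene, Ddb1 of DNA repair, stood at 0.11, although Nr1i3 itself also varied more (SD 1.40 against 0.21 on the log2 scale). Nr1i2 was nearest to Them4 (0.19), Rxra to Prr14 (0.16), Ahr to Tbcel (0.24) and Por to Lims2 (0.23).

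The CAR gene overlaps a neighbour. Tomm40l, on the opposite strand, overlaps the last 2900 bases of Nr1i3, and no source states whether counting used strand, so reads in the overlap may have gone to either gene. Tomm40l read 241, 277 and 283 in DEN_KO, 767, 775 and 799 in DEN_WT, 370, 379 and 463 in KO, and 705, 579 and 881 in WT. Tomm40l fell in DEN_KO against DEN_WT (log2 -1.55 ± 0.17, limma adjusted p = 7.6e-05), the opposite direction to Nr1i3, and in KO against WT (-0.82 ± 0.17, adjusted p = 0.039). It was also called lower in DEN_KO against KO (-0.59 ± 0.17, limma adjusted p = 0.036), where Nr1i3 changed by 0.07. Tomm40l was named after its values were seen.

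At the chromatin level, 5 of the 6 genes carried an H3K4me3 region within 1000 bases of their annotated start in the lists of DEN-treated KO and WT livers, all but Por. A region stood there for 72.4% of tested genes in KO and 70.5% in WT. Smyd3 peaks stood at 3 of the 6 starts, those of Ahr, Arnt and Rxra, against 64.2% of tested genes. Neither CAR nor PXR had a Smyd3 peak at the start. The nearest one to Nr1i3 lay upstream, at -18.3 to -17.5 kb from the start, overlapping an H3K4me3 region of both lists, and the one in Nr1i2 lay 40.3 kb into the gene. Each list is 1 set of regions for both precipitations with no score, so presence and length can be described and not tested.

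The H3K4me3 region at the CAR start was longer in the knockout list. It covered 3296 bases in KO (mm9 chr1:173143462-173146757) and 1124 bases in WT (chr1:173144071-173145194), a ratio of 2.93. Of the 11329 tested genes with a region in both lists, 1.26% had a ratio this high or higher, and the median ratio was 1.11. At Ahr the region covered 6384 bases in KO and 2908 in WT, a ratio of 2.20 that 3.74% of genes reached. Ratios of 2 or more occurred at 608 genes, which is 5.37%. Rxra had 6913 bases in KO and 4855 in WT (1.42), Nr1i2 3253 in KO and 3278 in WT (0.99), and Arnt 3008 in KO and 3583 in WT (0.84). With 1 list per genotype, a difference between genotypes and one between precipitations cannot be told apart.

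**Figure D3:**
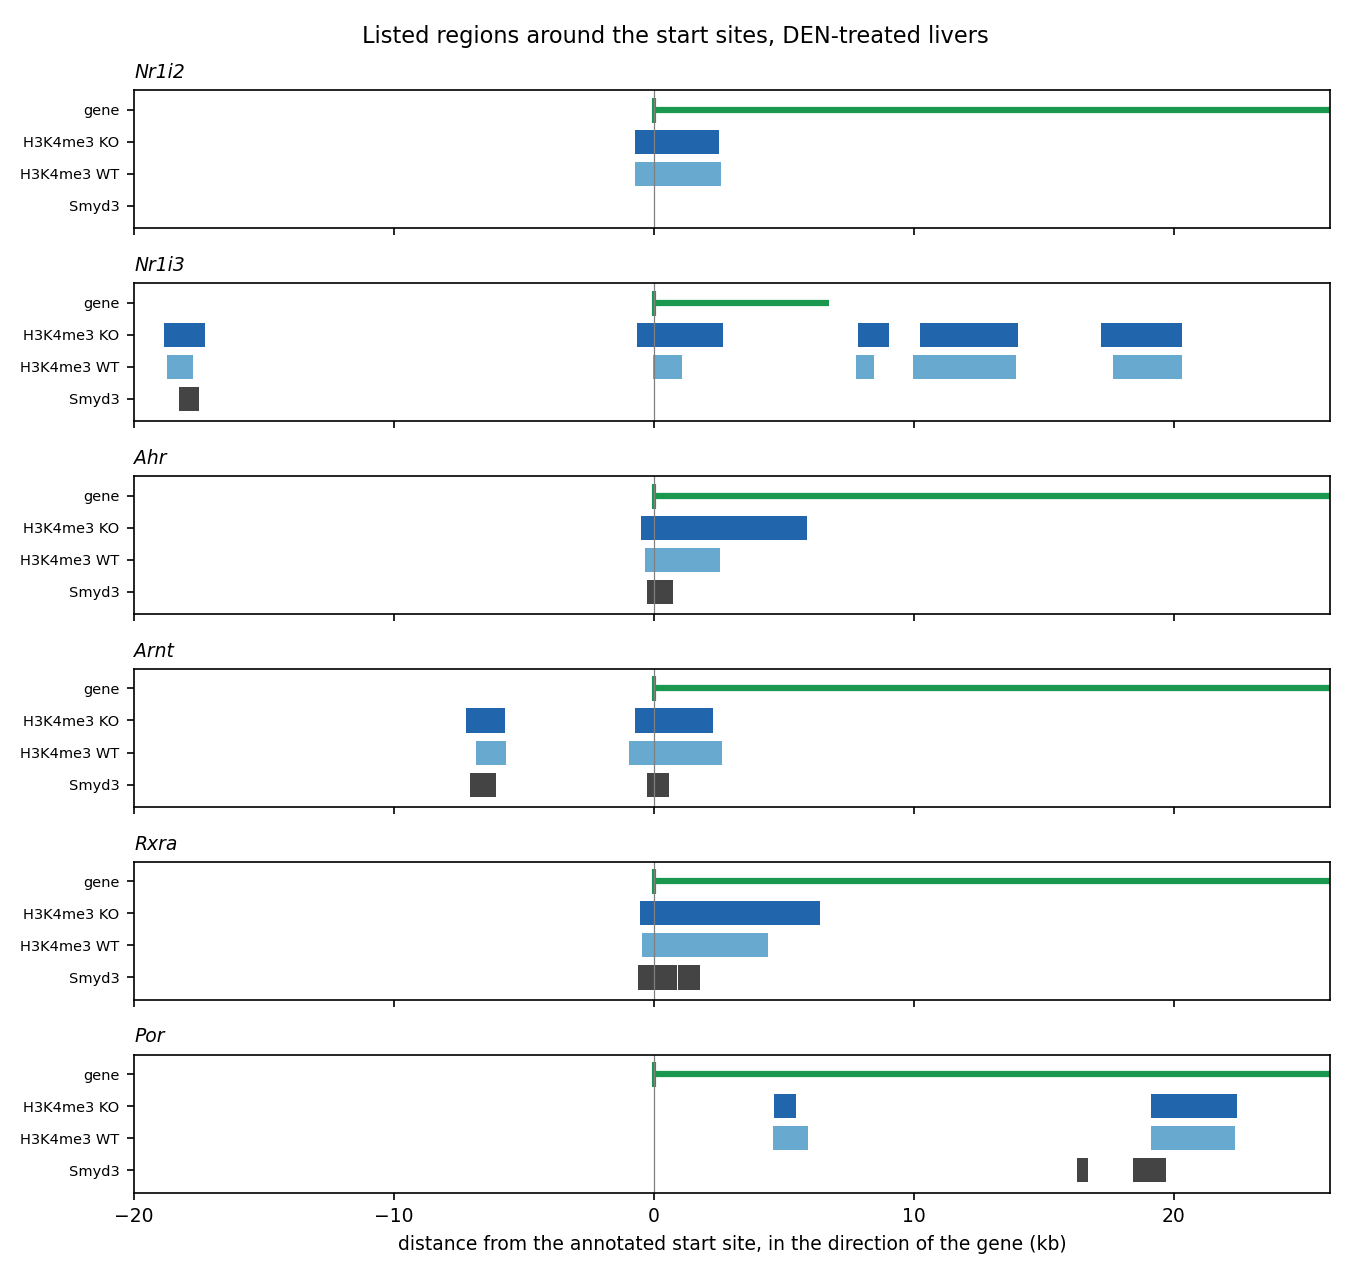
Deposited regions around the annotated start of each gene, drawn to scale in kb along the direction of transcription (horizontal axis, 0 at the start), with H3K4me3 in KO above H3K4me3 in WT and Smyd3 in WT beneath, and the gene as a bar on top. The Nr1i3 region is 3296 bases in KO and 1124 in WT, and the first regions of Por lie past its annotated start. Regions beyond the drawn window are not shown.

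Por had no region at the annotated start in any of the 3 lists. Its longest H3K4me3 region lay inside the gene, 19.1 to 22.4 kb past that start, with 3315 bases in KO and 3227 in WT, and a Smyd3 peak at 18.4 to 19.7 kb overlapped its beginning. RefSeq places a Por start 19105 bases after the first base of its own gene record in GRCm38.p6. The builds differ, so the positions were not matched. The 250 bases before that RefSeq start, chr5:135688895-135689144 on the plus strand, are shown because these distances, each within its own build, are similar. Whether the region lies at that start was not tested. Capitals mark GCGTG, the AHR-ARNT core, and its reverse complement CACGC, with 3 matches.
Por: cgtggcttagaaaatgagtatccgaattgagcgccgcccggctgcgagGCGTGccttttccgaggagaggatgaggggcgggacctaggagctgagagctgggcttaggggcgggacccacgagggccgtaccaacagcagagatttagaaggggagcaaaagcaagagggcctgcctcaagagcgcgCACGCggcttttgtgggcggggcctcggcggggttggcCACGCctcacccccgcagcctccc

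The upstream bases were 65.6% G and C for Por, 53.2% for Nr1i3 and 44% for Nr1i2. AGGTCA and CCCTCC had no match in the Por window.

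Most genes known to be switched on by CAR or PXR were lower in DEN_WT than in WT and higher in DEN_KO than in DEN_WT. Of 33 tested genes on this list, 21 were lower and 4 higher in DEN_WT against WT, and 24 were higher and 0 lower in DEN_KO against DEN_WT. The median log2 fold changes were -1.58 and 1.45, beside -0.02 and -0.06 over all tested genes, of which 13.5% were lower in DEN_WT against WT and 16.4% higher in DEN_KO against DEN_WT. The comparisons share the DEN_WT libraries. In KO against WT 0 of the 33 were called, beside 1.16% of all tested genes. In the difference of DEN effects 12 were higher and 0 lower, beside 8.73% and 7.83% of all tested genes. Those 12 became 7 without DEN_KO replicate 1 or WT replicate 2, 16 without DEN_WT replicate 1, and 8 to 13 under the other settings. The list names genes that other factors also control, and its members were chosen with results of these data known.

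Cyp2b10, the classical CAR target in mouse liver, read 757, 463 and 413 in DEN_KO, 297, 27 and 60 in DEN_WT, 2764, 1925 and 3035 in KO, and 1848, 2434 and 2621 in WT. Both treated groups lay below both untreated ones, and DEN_KO lay above DEN_WT. It was lower in DEN_WT than in WT (log2 -4.83 ± 0.60, limma adjusted p = 7.8e-05) and higher in DEN_KO than in DEN_WT (2.72 ± 0.60, adjusted p = 0.0039). Unlike Nr1i3, it was also called lower in DEN_KO against KO (-2.26, adjusted p = 0.023).

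The main PXR target of mouse liver, Cyp3a11, read 82608, 44081 and 46416 in DEN_KO, 35085, 15261 and 21565 in DEN_WT, 108987, 77989 and 110996 in KO, and 112108, 154402 and 151783 in WT. DEN_WT was lowest throughout, with log2 fold changes of -2.61 against WT (adjusted p = 0.00017) and 1.29 for DEN_KO against DEN_WT (adjusted p = 0.014, both limma). Gsta2, a glutathione transferase, read 1930, 894 and 1157 in DEN_KO and 141, 89 and 230 in DEN_WT, a log2 fold change of 3.13 ± 0.34 (adjusted p = 6.3e-05). Gsta1 changed by 2.96 ± 0.59 in the same comparison. Both belong to a gene family with near-identical copies, as do the Cyp2b genes, and reads may have been split between copies.

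A pair of Cyp2b genes ran the other way in DEN_WT against WT. Cyp2b9 read 1055, 979 and 326 in DEN_KO, 3067, 7314 and 3666 in DEN_WT, 595, 202 and 440 in KO, and 10, 663 and 507 in WT. It was higher in DEN_WT than in WT (log2 4.81 ± 1.14, adjusted p = 0.0063), as was Cyp2b13 (3.48 ± 0.65, adjusted p = 0.0015, both limma). In DEN_KO against DEN_WT neither Cyp2b9 nor Cyp2b13 was called (-2.64 and -1.43, limma adjusted p = 0.089 and 0.11). The other list genes called higher were Abcb1a, a drug exporter, at 2.31 and Gadd45b, a stress gene, at 2.72.

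AHR target genes were mostly lower in DEN_WT against WT where they changed. Of 13 tested, 6 were lower and 1 higher in DEN_WT against WT (median -0.84), beside 13.5% and 16.1% of all tested genes. In DEN_KO against DEN_WT 6 were higher and 2 lower (median 0.75), beside 16.4% and 17.4% of all tested genes. The counts in DEN_WT against WT were 3 lower and 3 higher when libraries were scaled to equal totals, and 3 lower and 4 higher when the 10 highest genes were left out of those totals. Cyp1a2, the main hepatic Cyp1a enzyme, read 24315, 12997 and 23221 in DEN_KO, 4795, 1149 and 4936 in DEN_WT, 32944, 30240 and 26593 in KO, and 20672, 18512 and 15224 in WT. DEN_WT lay below all other groups, with log2 fold changes of -2.58 ± 0.44 against WT (adjusted p = 0.00083) and 2.69 ± 0.44 for DEN_KO against DEN_WT (adjusted p = 0.00071). Gsta1, also on this list, was lower in DEN_WT against WT (-1.90), as was Cyp1a1 (-1.63). Cyp1a1 read 166 to 457 in DEN_KO and 31 to 59 in DEN_WT, a log2 fold change of 2.78 (adjusted p = 0.0015, all limma). The 2 lower in DEN_KO against DEN_WT were Tiparp, which modifies and restrains AHR (-0.83), and Nfe2l2, the antioxidant regulator NRF2 (-1.03), and the count was 1 without any of DEN_KO replicates 2 and 3 and DEN_WT replicates 2 and 3. Ahr itself was not called in that comparison (0.38 ± 0.23, 95% interval -0.11 to 0.88, adjusted p = 0.22).

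Among 15 tested partners of RXR and other RXR genes, 3 were higher and 5 lower in DEN_WT against WT, where 29.6% of all tested genes were called. Their median log2 fold change was 0.06 there and 0.32 in DEN_KO against DEN_WT. Rarg, a retinoic acid receptor, averaged 267 ± 39.2 in DEN_KO, 793 ± 98.5 in DEN_WT, 198 ± 12.6 in KO and 138 ± 23.6 in WT (SD, n = 3 each). It was higher in DEN_WT against WT (log2 2.52, limma adjusted p = 1.7e-06) and lower in DEN_KO against DEN_WT (-1.57, adjusted p = 9.8e-05). The fatty acid receptor Ppara fell to 1657 ± 12.7 in DEN_WT, against 3043 ± 526 in WT (log2 -0.86, adjusted p = 0.0033), and DEN_KO exceeded DEN_WT by 0.81 (adjusted p = 0.0048). The bile acid receptor Nr1h4 and the oxysterol receptor Nr1h3 were lower in DEN_WT against WT as well, at -1.42 and -0.63. Nr1h4 read 1704 to 1905 in DEN_KO, 876 to 1783 in DEN_WT, 1317 to 1833 in KO and 2690 to 4280 in WT. It thus stood below WT in the untreated knockouts too. In KO against WT 1 gene of the list was called lower, beside 0.613% of all tested genes. That count was 0 in 14 of 22 alternatives. Nr4a1, an immediate early receptor, was higher in DEN_WT against WT (2.94) and in DEN_KO against DEN_WT (2.05), and Nr4a2 was lower in DEN_WT against WT (-1.70). Nr4a1 averaged 299 in DEN_KO, 66.7 in DEN_WT and 7.67 in WT, and Nr4a2 7.33 in DEN_WT and 22 in WT. At such low values the changes against WT are sensitive to the added 1. In DEN_KO against DEN_WT 3 were higher and 1 lower, with 33.9% of all tested genes called, and without DEN_KO replicate 3 the number higher was 1. Against WT, 5 were higher in DEN_WT without DEN_WT replicate 1, and 7 were higher and 1 lower with equal totals without the 10 highest genes.

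Some bHLH-PAS relatives of Ahr and Arnt rose in DEN_WT. Of 10 tested, 5 were higher and 0 lower against WT: Arnt2 (log2 3.51), Arntl2 (3.40), Npas2 (2.66), Arntl (1.66) and Epas1 (0.73). Of all tested genes 16.1% were higher and 13.5% lower in that comparison. Arntl and Npas2 are core clock genes and Epas1 is a hypoxia factor. Arnt2 and Arntl2 were low, with means of 58 ± 22 and 40.3 ± 11.1 in DEN_WT and 4 ± 1 and 3.33 ± 2.52 in WT, so their fold changes are sensitive to the added 1. The count was 2 without WT replicate 2 and 3 without DEN_WT replicate 2 or 3. Npas2 was highest in DEN_WT replicate 2 (274), the library lowest for Dbp. In DEN_KO against DEN_WT 1 gene was called, Arntl2 (-1.50), beside 33.9% of all tested genes. With equal totals without the 10 highest genes 5 of the list were lower. The number lower was 0 with no filter, a filter of 50, the replicate block, or without DEN_KO replicate 3, DEN_WT replicate 2 or DEN_WT replicate 3, and 2 without DEN_KO replicate 2 or DEN_WT replicate 1.

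Of 26 tested receptor chaperones and coregulators, 2 were lower in DEN_WT against WT, Nr0b2, the corepressor SHP (-0.99), and Fkbp4, an HSP90 co-chaperone (-0.70), beside 29.6% of all tested genes called. The number lower was 0 with equal totals or without DEN_WT replicate 2 or WT replicate 2, 1 without WT replicate 1, and 4 without DEN_KO replicate 1. In DEN_KO against DEN_WT 3 were higher and 1 lower, and 22 were not called, beside 33.9% of all tested genes called. The list's median log2 fold changes were -0.12 in DEN_WT against WT and 0.14 in DEN_KO against DEN_WT. Hsp90ab1, a receptor chaperone, was higher by 0.75 on the log2 scale and Nr0b2 by 1.29 (limma adjusted p = 0.025 and 0.0038), and the coactivator Ncoa2 was lower, at -0.39. The number lower was 0 in 9 of 22 alternatives, among them leaving out DEN_KO replicate 1 or 2 or any DEN_WT library, and the number higher was 5 without DEN_KO replicate 1.

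Of 16 tested electron carriers and flavoproteins other than Por, 2 were higher and 4 lower in DEN_WT against WT, and 3 were higher and 2 lower in DEN_KO against DEN_WT. These shares were near those of all tested genes, of which 29.6% and 33.9% were called. The medians of the list were -0.10 and 0.15 on the log2 scale. Cyb5, cytochrome b5, another electron donor of P450 enzymes, read 20520, 14787 and 17270 in DEN_KO, 6386, 3583 and 5427 in DEN_WT, 15615, 12054 and 18901 in KO, and 10268, 12193 and 9102 in WT. DEN_WT lay below all other groups without overlap, and DEN_KO above WT. The log2 fold changes were -1.07 ± 0.24 in DEN_WT against WT (adjusted p = 0.0050) and 1.80 ± 0.24 in DEN_KO against DEN_WT (adjusted p = 0.00022, both limma). Fdx1, mitochondrial ferredoxin, changed by -0.70 and 1.18 in the same comparisons, and Fdx1l, a related ferredoxin, was higher by 1.19 in DEN_KO against DEN_WT. Cyb5r1, a cytochrome b5 reductase, ran the other way at 1.77 and -1.02, as did Nos2, an inducible flavoenzyme, at 2.85 and -3.21. Nos2 averaged 2.67 ± 2.52 in DEN_KO, 26.7 ± 8.74 in DEN_WT and 3 ± 1.73 in WT (SD, n = 3 each). The counts in DEN_WT against WT were 1 higher and 1 lower without WT replicate 2, 1 higher and 2 lower without DEN_WT replicate 3, 1 higher without DEN_WT replicate 1, and 4 higher and 1 lower with equal totals without the 10 highest genes. The 2 lower in DEN_KO against DEN_WT became 0 without DEN_WT replicate 2, and 1 without DEN_KO replicate 3, DEN_WT replicate 1 or DEN_WT replicate 3, or with a filter of 50.

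Among 20 tested enzymes that draw electrons from Por, 10 were lower and 5 higher in DEN_WT against WT (median -1.25). All tested genes were lower there in 13.5% and higher in 16.1%. In DEN_KO against DEN_WT 10 were higher and 4 lower (median 1.15), beside 16.4% and 17.4% of all tested genes. Some genes of this list, such as Cyp1a2 and Cyp3a11, were also counted on lists above. Cyp2e1, which activates nitrosamines, averaged 108926 ± 24983 in DEN_KO, 30855 ± 17421 in DEN_WT, 172174 ± 11794 in KO and 203933 ± 28980 in WT. It was lower in DEN_WT against WT (log2 -2.93, limma adjusted p = 0.00033) and higher in DEN_KO against DEN_WT (2.00, adjusted p = 0.0038). The fatty acid hydroxylases Cyp4a14 and Cyp4a10 were higher in DEN_KO against DEN_WT by 4.68 and 4.10, with wide spread in DEN_KO (2892 ± 2519 for Cyp4a14). The list genes that ran the other way included the sterol synthesis enzymes Sqle, Dhcr7 and Cyp51, at 2.15, 1.57 and 0.60 in DEN_WT against WT and -1.68, -1.25 and -0.71 in DEN_KO against DEN_WT. Cyp39a1, an oxysterol hydroxylase, did so too, at 3.56 and -1.44. Cyp17a1, a steroid hydroxylase, was higher in DEN_WT against WT (4.29) and in KO against WT (5.55, adjusted p = 0.024), the 1 gene of this list called between untreated livers. It read 1755, 34 and 118 in DEN_WT, 391, 514 and 501 in KO, and only 27, 6 and 4 in WT. The count of 1 between untreated livers became 0 in 5 of 22 alternatives. The 4 lower in DEN_KO against DEN_WT became 2 without DEN_KO replicate 3 or DEN_WT replicate 2.

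Haem, the P450 cofactor, is made by a pathway of which 9 genes were tested. Of these, 5 were lower and 0 higher in DEN_WT against WT, beside 13.5% and 16.1% of all tested genes. In DEN_KO against DEN_WT 4 were higher and 0 lower, beside 16.4% and 17.4% of all tested genes. Alas1, the rate-limiting hepatic enzyme and itself a CAR and PXR target, read 10267, 8653 and 8289 in DEN_KO, 8832, 3311 and 5217 in DEN_WT, 3297, 6702 and 30026 in KO, and 45118, 54513 and 24602 in WT. It was lower in DEN_WT than in WT (log2 -2.88 ± 0.61, limma adjusted p = 0.0032), while DEN_KO and DEN_WT overlapped (0.76 ± 0.61, adjusted p = 0.36). Cpox, coproporphyrinogen oxidase, changed by -1.64 in DEN_WT against WT and 1.54 in DEN_KO against DEN_WT (adjusted p = 5.4e-05 and 0.00014). It read 2326 to 3661 in DEN_KO, 876 to 1011 in DEN_WT, 4862 to 5991 in KO and 2430 to 3475 in WT. Of the 9 genes, 1 was called higher in KO against WT and 1 lower in DEN_KO against KO. Of all tested genes 0.546% and 6.02% were so called. Alas2, the erythroid form, changed by -1.54 and 2.13, and Urod by -0.93 and 1.00.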

How the data were processed

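Per the labels' protocols, liver mRNA libraries were read on Ion Proton chips. The submitters' processing notes list mouse build mm9 and the tools cutadapt, Bowtie2, TopHat2 2.0.9, DESeq and Cufflinks, without roles. Expression values are, as deposited, a score for each gene: the authors scaled read counts by a library factor and kept whole numbers. The values themselves show this, with median-ratio factors of 0.999 to 1.00. The deposited region lists give start, end and a score of 0 for each region. The GC fraction beside each gene is the authors', per the file headers, and was not used in a test.

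The planned test on raw counts was replaced, since the values are scaled. Genes reaching 10 in 3 or more libraries were tested with limma 3.58.1 (R 4.3.3) on log2(value + 1), which understates changes of low genes. A single fit of 4 groups left 8 residual degrees of freedom, with a variance trend, Benjamini-Hochberg adjustment over all 16471 genes and a threshold of 0.05. For groups of 3 the smallest p of an exact permutation test is 0.1. No counting interval is given, because the values are scaled and rounded. In simulated data made for DEN_WT against WT over 16471 genes, 108 genes were changed by 1 on the log2 scale and 92 by 2. Of these, 44.4% and 98.9% were called. In the data 4882 genes were called in that comparison, so the adjustment was not the same. The SE also differed between members there, such as 0.38 for Nr1i3 and 0.16 for Arnt. These rates therefore do not give the power of the test for the members.

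A region was at a start site if it overlapped 1000 bases to either side by at least 1 base. Promoters came from RefSeq (GRCm38.p6), with 250 bases searched. Members and lists were chosen with earlier results of these data known. In each list and comparison the genes named were those of largest absolute change among the called ones, up to 3 for DEN_WT against WT and for DEN_KO against DEN_WT, besides genes named by their role. A gene that this rule names is not reported here. Alternatives covered the added constant, the filter, 3 other scalings, the variance trend, separate fits, a replicate block and each left-out library. RNA polymerase II and input libraries were not analysed here. Columns outside the series numbered 0 in the expression table. Python 3.11.15 and matplotlib 3.10.9 were used for regions and figures.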

Additional observations from a re-analysis of the deposited data

Results flagged for a closer look

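The effect of DEN on Nr1i3 differed between genotypes. The DEN effect in KO minus that in WT was 1.95 ± 0.54 (SE) on the log2 scale, by the interaction term of the 4-group limma fit (adjusted p = 0.027), and it was tested directly. The change was 0.07 in DEN_KO against KO and -1.88 in DEN_WT against WT. It is listed here because the effect of the same treatment differed between the 2 genotypes. The term missed the threshold in 5 of 21 alternatives.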

How the results depend on the processing

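Over the 30 results of the 6 genes, 605 of 654 alternatives kept direction and side of the threshold, 32 lost the call, 6 gained one and 11 changed sign. The cause was not tested. In DEN_WT against WT the number of the 6 genes called was 1 with no filter on low values, quantile normalization, equal totals, no variance trend, only the groups compared, or the replicate block, and 1 to 3 with a library left out. In DEN_KO against DEN_WT it was 1 with no filter, quantile normalization, no trend or only the groups compared, and 1 to 3 with a library left out. In DEN_KO against KO it was 0 with equal totals and 0 to 1 with a library left out, and in the difference of DEN effects 0 with no trend and 0 to 1 with a library left out. Fitting only the groups compared gives no value for that difference.

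With a library left out, all called genes numbered 62 to 555 in KO against WT (104 with no trend and 115 with only the groups compared), 1119 to 2661 in DEN_KO against KO and 1751 to 3075 in the difference of DEN effects. Leaving out a library turned the sign of uncalled log2 values. These ran from -0.21 to 0.64 (Nr1i2), -0.23 to 0.0078 (Arnt) and -0.025 to 0.073 (Rxra) in KO against WT. They ran from -0.015 to 0.084 (Arnt) and -0.26 to 0.35 (Por) in DEN_KO against KO, and from -0.25 to 0.60 (Nr1i2) in the difference of DEN effects. That difference was -0.052 for Rxra with quantile normalization and -0.16 for Nr1i2 with equal totals without the 10 highest genes.

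Scaling moved all genes together. In DEN_WT against WT 54.5% of called genes were higher, against 74.2% with equal totals and 84.3% when the 10 highest genes were left out of the totals, where the median log2 fold change of all genes was 0.19 and 0.36. In DEN_KO against DEN_WT the share was 48.6%, against 30.7% without the 10 highest genes (median -0.27). In KO against WT it was 47.1%, against 65.1% and 62.7%, in DEN_KO against KO 59.7%, against 69.9% and 71.2%, and in the difference of DEN effects 52.7%, against 38.2% and 24.2%. Same-numbered libraries correlated at -0.10 to 0.12, with 1 of 18 pairs over 0.1 and 3 of 12 libraries closest to their own number, so the numbers were not taken as pairs. With the replicate block, 4602 genes were called in DEN_WT against WT and 5288 in DEN_KO against DEN_WT. Requiring a region's midpoint within 1000 bases of the start gave an H3K4me3 region at 2 of the 6 genes in KO and 3 in WT. The rounded, scaled values limit precision for low genes such as Arnt2 and Nos2.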
